A study of Oryza sativa with 8 samples.

Results

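The auxin response and transport genes of rice leaves were taken as the genes whose name or description, in either deposited table, held 'AUX/IAA', 'PF02309', 'auxin response factor', 'auxin-responsive', 'SAUR', 'auxin efflux', 'PIN-FORMED', 'GH3' or 'auxin transporter' in any case. This text rule used no measured value and found 214 of the 43019 genes listed. Of these, 84 matched in the text of the table of 6 libraries, 210 in that of the table of 2 libraries and 80 in both. The matched genes were 34 Aux/IAA genes, 30 auxin response factor (ARF) genes, 59 SAUR genes, 25 GH3 genes, 29 PIN and PILS carriers, 10 AUX1/LAX carriers and 27 text matches of another kind. The last were mostly leucine-rich repeat receptor kinases whose closest listed protein has an accession with the letters GH3. Others included an ADP-ribosylation factor and a checkpoint protein abbreviated ARF. The terms that set this group apart also covered histone H3-like entries and entries with BGH3B in the name. All 27 text matches are kept as members and described apart, so that 187 genes belong to auxin families.

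RNA was sequenced from leaves of rice seedlings grown for 2 weeks on solid medium, with 1 library per group and so no replicate and no p-value. The glk1glk2 mutant, the dgp1 mutant and the wild type DJ were each sampled 6 days after transfer to low phosphate with 10 µM KH2PO4 (LP) and under normal supply (CK). The cultivar ZH11 was sampled 24 h after transfer to medium without phosphate (NP) and under normal supply (CK). GLK1 and GLK2, of the Golden2-like family, switch on genes of photosynthesis and chloroplast development, and DGP1 holds their activity down. The alleles, the number of plants per library and the number of independent lines are not given in the labels. The 6 libraries of glk1glk2, dgp1 and DJ (the 6-library table) and the 2 of ZH11 were scaled separately by the authors, so ratios were formed within a table only.

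Auxin, chiefly indole-3-acetic acid, is carried into cells by AUX1/LAX proteins, out of them by long PIN proteins, and into the endoplasmic reticulum by short PIN and PILS proteins. In the nucleus it binds TIR1/AFB F-box receptors together with Aux/IAA repressors, which are then degraded, freeing ARF transcription factors that bind auxin-responsive promoters. Aux/IAA, SAUR and GH3 genes are the classic early targets: Aux/IAA proteins feed back on the response, SAUR proteins promote cell expansion in Arabidopsis, and many GH3 enzymes conjugate auxin to amino acids. Phosphate starvation is known to alter auxin transport and response, chiefly in roots, and leaf growth and leaf angle in rice also depend on auxin.

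Recovered read totals ran from 12525772 to 16566008, but the effective depth differed far more. In 5 of the 8 libraries most low genes had read numbers grouped at a multiple, and that multiple was treated as 1 cDNA fragment. The search for it was adjusted on these libraries until it found the grouping seen in each, before any ratio was formed. Estimated fragments were 85209 in glk1glk2_LP, 78613 in glk1glk2_CK, 691600 in dgp1_CK, 2366573 in DJ_LP and 275444 in DJ_CK. No such grouping was found in dgp1_LP, ZH11_NP and ZH11_CK, where each read was counted as 1 fragment, so intervals there are too narrow if reads were also duplicated. A level of 3 fragments for a 1-kb gene was 27.3 FPKM in glk1glk2_LP, 30.5 in glk1glk2_CK, 0.222 in dgp1_LP, 5.54 in dgp1_CK, 1.02 in DJ_LP and 11.5 in DJ_CK, and a gene listed at 0 may have had a level up to that order. Of the members listed, 32.1% were above 0 in glk1glk2_LP, 29.7% in glk1glk2_CK, 58.9% in dgp1_LP, 38.8% in dgp1_CK, 56.0% in DJ_LP and 38.8% in DJ_CK. Of all genes of the table, 36.9% were above 0 in glk1glk2_LP, 37.0% in glk1glk2_CK, 62.5% in dgp1_LP, 49.6% in dgp1_CK, 58.9% in DJ_LP and 43.7% in DJ_CK. GLK1 stood at 49.3 FPKM in glk1glk2_LP and 40.9 in glk1glk2_CK, against 129.6 FPKM in DJ_LP and 179 in DJ_CK. GLK2 stood at 53.0 and 32.2 FPKM in the same 2 glk1glk2 libraries, against 86.9 in DJ_LP and 96.2 in DJ_CK, and DGP1 was not analysed here. The 4 leaf markers that could be matched were above 0 in all 8 libraries, with the Rubisco small subunit RBCS3 between 490.0 and 8164 FPKM. The stem-base and meristem genes OSH1, OSH6 and OSH15 and the root silicon transporter LSI2 were listed at 0 in all 8, while the root transporter LSI1 stood at 12.2 to 63.2 FPKM and RCC3 was above 0 only in DJ_CK, at 6.55 FPKM. The 4 leaf markers summed to 3382 FPKM in glk1glk2_LP, 4351 in glk1glk2_CK, 43306 in dgp1_LP, 29680 in dgp1_CK, 8597 in DJ_LP and 16811 in DJ_CK. The 3 genes found for dividing cells summed to 31.9 FPKM in glk1glk2_LP, 0 in glk1glk2_CK, 22.4 in dgp1_LP, 23.3 in dgp1_CK, 23.8 in DJ_LP and 53.1 in DJ_CK. The part of depth and of these markers in the results was not tested. In bulk leaf RNA, fewer cells of a type and less RNA per cell cannot be told apart.

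Across the 8 libraries 150 of the 214 members were above 0 in at least one and 64 were at 0 in all. Read as FPKM, a level per gene length, 48 members were above 0 in every library: 17 ARF, 14 Aux/IAA, 5 SAUR, 4 PIN and PILS, 2 GH3 and 1 AUX1/LAX gene and 5 text matches. The summed level of the Aux/IAA genes was the highest of the families in all 8 libraries, at 489 FPKM in glk1glk2_LP, 622 in glk1glk2_CK, 989 in dgp1_LP, 933 in dgp1_CK, 692 in DJ_LP and 766 in DJ_CK, and 1299 in ZH11_NP and 1167 in ZH11_CK. SAUR genes summed to 402 FPKM in glk1glk2_LP and 374 in glk1glk2_CK, 458 in dgp1_LP and 594 in dgp1_CK, and 333 in DJ_LP and 744 in DJ_CK.

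**Figure D1:**
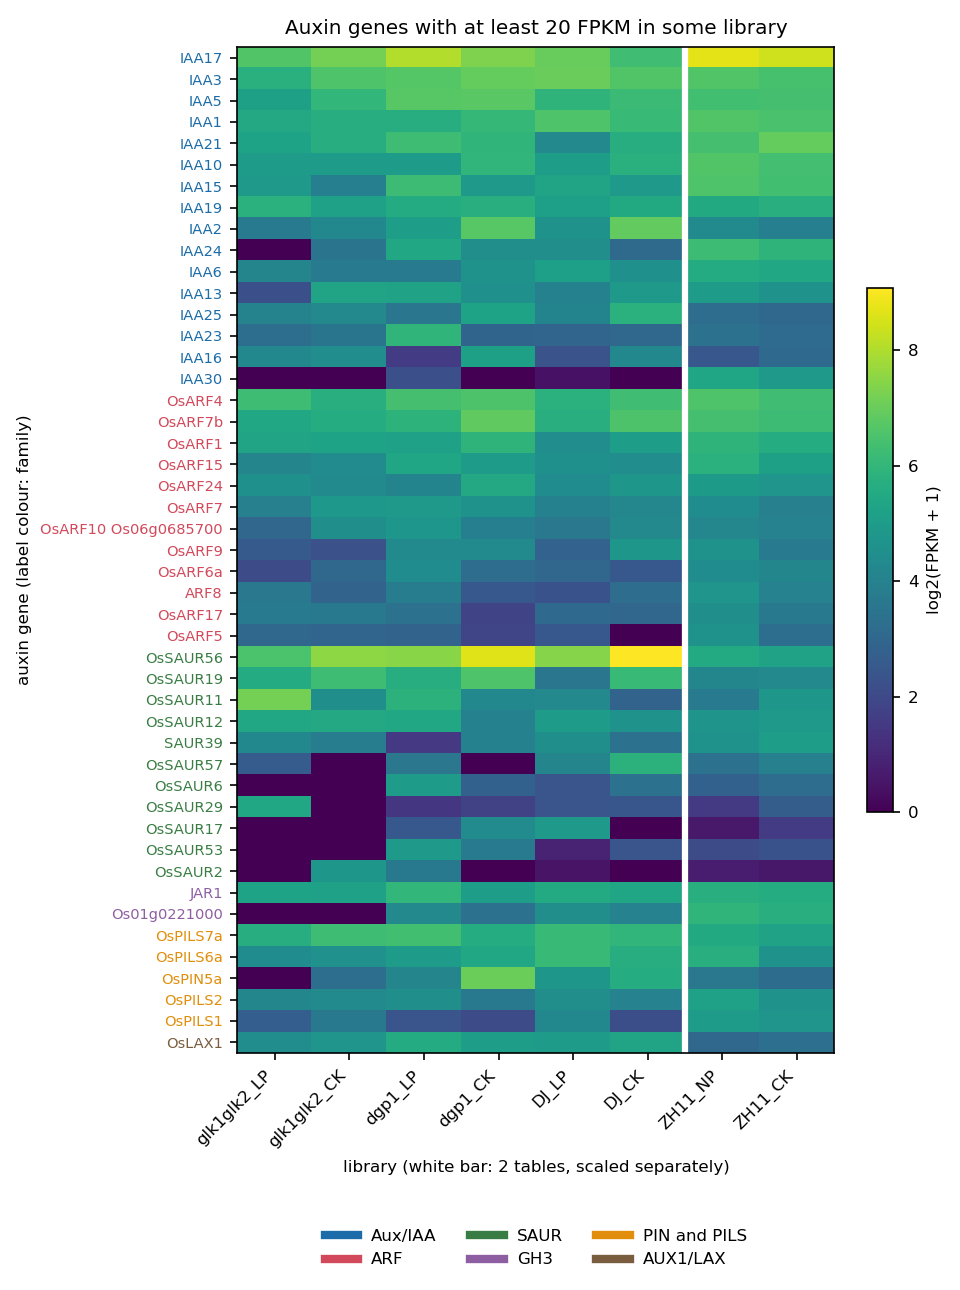
Heat map of log2(FPKM + 1) for the 47 genes of the auxin families with at least 20 FPKM in some library, ordered by family and then by mean level; columns are libraries and the white bar parts the separately scaled tables. Most Aux/IAA and ARF rows are filled in every library, whereas many SAUR rows are at 0 in the shallow glk1glk2 libraries.

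A member was called at least 2-fold higher or lower from log2((FPKM + 1)/(FPKM + 1)), with at least 5 FPKM in one of the 2 libraries compared. It was called beyond counting error where, in addition, the 95% exact conditional binomial interval of the ratio over estimated fragments left out 1. Folds in the text are ratios of the deposited FPKM with that interval in parentheses. A fold against a library at 0 is a lower bound set against 3 estimated fragments in that library. These intervals cover counting error only and say nothing of plant-to-plant spread.

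On low phosphate, 16 of 65 members were at least 2-fold higher in DJ_LP than in DJ_CK and 13 lower, against 23.1% and 24.3% of all genes. Beyond counting error the numbers were 8 higher and 11 lower, against 10.6% and 17.8%, and of the 53 auxin-family genes tested 2 were higher and 9 lower. The 9 were IAA2, IAA16, IAA21, IAA25, OsARF8, OsARF9, OsSAUR19, OsSAUR56 and OsSAUR57. Scaling by own read totals, which adds 0.40 to this log2 ratio, gave 23 members higher and 11 lower. Over all genes it gave 5141 higher and 2800 lower, against 3551 and 3727 at the authors' scaling.

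In dgp1, 22 of 67 members were at least 2-fold higher in dgp1_LP than in dgp1_CK and 13 lower, against 24% and 20.7% of all genes. Beyond counting error 18 were higher and 13 lower, against 19% and 18.9%, and among 56 auxin-family genes these were 13 higher and 12 lower. Aux/IAA genes divided, with IAA8, IAA12, IAA15 and IAA23 higher and IAA2, IAA7, IAA10, IAA16 and IAA25 lower, of 19 tested. With own read totals 5 Aux/IAA genes were higher and 3 lower, and IAA10, at a log2 ratio of -0.87, was under 2-fold. Over all genes own totals gave 3715 higher and 2604 lower, against 3738 and 3234 at the authors' scaling. The median log2 ratio over members was 0.65 in dgp1 and 0.12 in DJ, beside 0.10 and 0.11 over all genes. Over the auxin families alone it was 0.43 in dgp1 and -0.04 in DJ. With own read totals it was 0.78 in dgp1 and 0.46 in DJ over all members, beside 0.19 and 0.51 over all genes. Scaling to own totals adds 0.12 in dgp1.

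In glk1glk2, 11 of 61 members were higher in glk1glk2_LP than in glk1glk2_CK and 12 lower, against 23.3% and 23.1% of all genes. At the depth of these 2 libraries a single member, OsSAUR11, was beyond counting error, and it was higher; the shares over all genes were 0.446% higher and 0.66% lower. With a further, lower read-number peak of the glk1glk2 libraries as 1 fragment, 7 members were beyond counting error. That setting narrows the intervals of all genes, and the share over all genes is not given here.

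**Figure D2:**
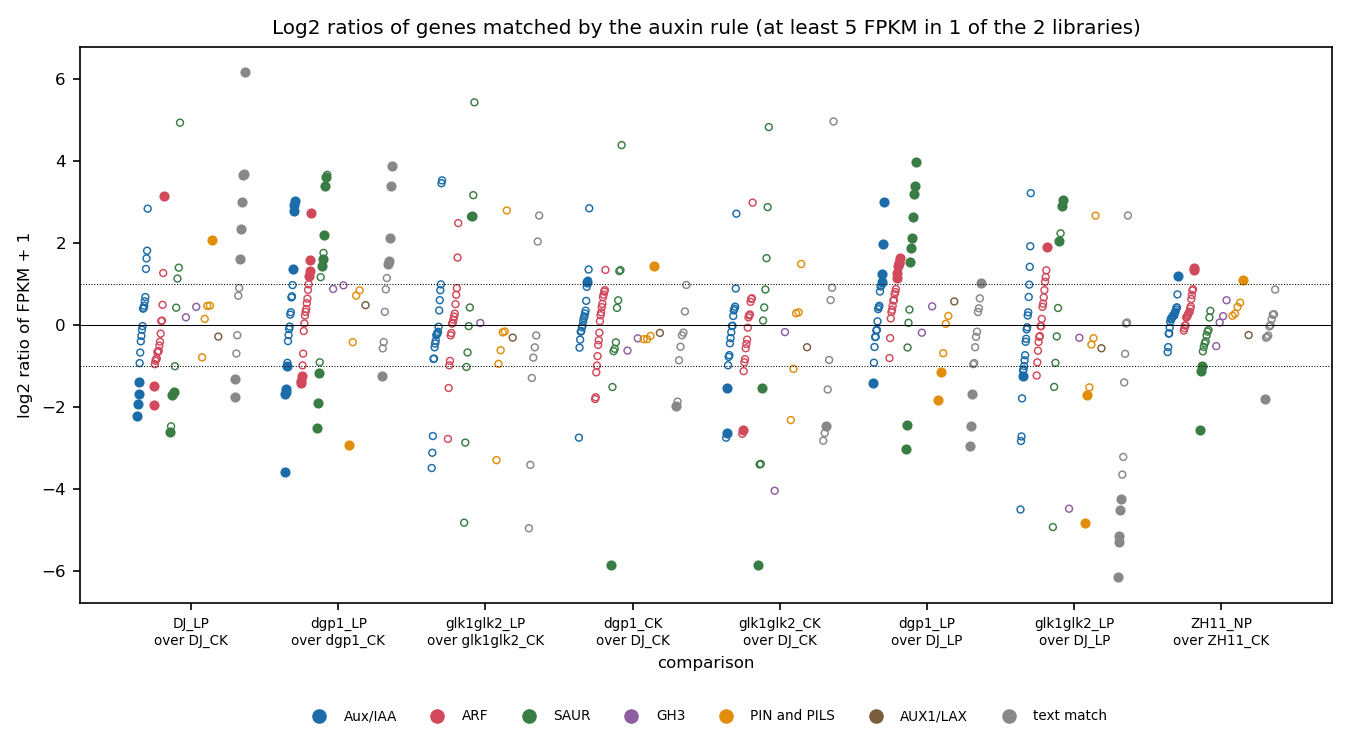
Log2 ratios of FPKM + 1 for each member with at least 5 FPKM in one of the 2 libraries, by comparison and family; filled points are at least 2-fold and beyond counting error, and dotted lines mark 2-fold. Filled points are spread to both sides in the DJ and dgp1 responses, and the glk1glk2 response has 1, OsSAUR11.

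Between genotypes under normal supply, 9 of 61 members were at least 2-fold higher in dgp1_CK than in DJ_CK and 8 lower, against 16.1% and 14.1% of all genes. Beyond counting error there were 2 in each direction, against 4.44% and 3.96%: IAA17 and OsPIN5a were higher, and OsSAUR57 and the kinase SHR5 were lower. Own read totals shift this ratio by -0.27 and gave 6 higher and 8 lower. Over all genes they gave 1485 higher and 2771 lower, against 2342 and 2053 at the authors' scaling. In glk1glk2_CK, 7 of 59 members were higher than in DJ_CK and 17 lower, against 27.4% and 31.3%. Beyond counting error none was higher and 6 were lower, against 6.34% and 7.04%: IAA2, IAA25, OsARF9, OsSAUR56, OsSAUR57 and the kinase-like gene Os05g0256100. With the further read-number peak as 1 fragment, which narrows the intervals of all genes, the 6 became 11, with no share over all genes given. Own read totals add 0.41 here and gave 14 higher and 14 lower. Over all genes they gave 5645 higher and 3924 lower, against 4256 and 4865 at the authors' scaling. All comparisons with DJ_CK share that one library, as do the DJ response and these genotype ratios.

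On low phosphate, 18 of 67 members were at least 2-fold higher in dgp1_LP than in DJ_LP and 8 lower, against 20.9% and 13.4% of all genes, and all 26 were beyond counting error, against 20.7% and 13.3%. Of the auxin families, 17 of 55 genes were higher and 5 lower, but with own read totals, which shift the ratio by -0.55, 11 were higher and 12 lower. Over all members own totals gave 11 higher and 19 lower. All genes shifted the same way, with 1918 higher and 4066 lower at own totals, against 3097 and 1987 at the authors' scaling. In glk1glk2_LP, 13 of 68 members were higher than in DJ_LP and 23 lower, against 23.5% and 26%. Beyond counting error 4 were higher and 8 lower, against 11% and 5.18%, and 5 of the 8 were receptor kinase text matches at 0 in glk1glk2_LP. With the further read-number peak as 1 fragment, which narrows the intervals of all genes, the 12 became 22, with no share over all genes given.

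**Figure D3:**
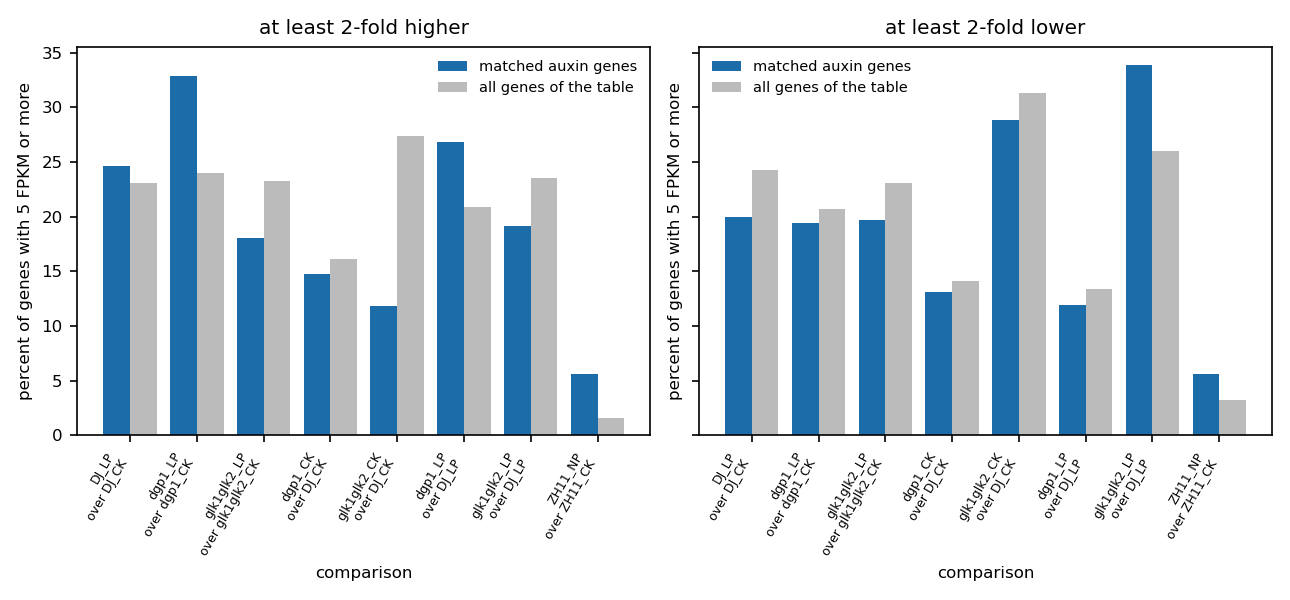
Share of genes at least 2-fold higher (left) and lower (right) in each comparison, for the genes matched by the rule (blue, 59 to 72 genes) and for all genes of the same table (grey), in percent of genes with 5 FPKM or more in one of the 2 libraries. The widest gap is in glk1glk2_CK over DJ_CK, where 11.9% of blue and 27.4% of grey genes are higher, and in the ZH11 comparison the blue bars stand at 5.56% against 1.61% higher and 3.19% lower over all genes.

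The PILS carriers above 0 in every library were OsPILS7a, OsPILS6a, OsPILS2 and OsPILS1. OsPILS7a (Os09g0554300, chromosome 9, 21963654 to 21968219), a PIN-like carrier, stood at 49.1 FPKM in glk1glk2_LP and 75.8 in glk1glk2_CK, 80.2 in dgp1_LP and 48.6 in dgp1_CK, and 68.8 in DJ_LP and 62.2 in DJ_CK, and at 44.8 FPKM in ZH11_NP and 36.9 in ZH11_CK. Coordinates are those of the deposited tables, whose genome build is not given in the sources used here. Its highest level over the 6 libraries was 1.65 times its lowest. OsPILS6a stood at 20.4 FPKM in glk1glk2_LP and 23.3 in glk1glk2_CK, 30.7 in dgp1_LP and 41.5 in dgp1_CK, and 69.5 in DJ_LP and 50.2 in DJ_CK; on low phosphate it was 2.26-fold lower (2.02 to 2.53) in dgp1 than in DJ and 3.40-fold lower (1.47 to 10.3) in glk1glk2 than in DJ. OsPILS2 stayed between 11.8 FPKM in dgp1_CK and 21.9 in dgp1_LP.

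OsPILS1 stood at 17.9 FPKM in DJ_LP and 3.54 in DJ_CK, and was 5.06-fold higher (1.43 to 37.6) on low phosphate. It was 4.18-fold lower (3.25 to 5.37) in dgp1_LP than in DJ_LP, with 4.28 FPKM in dgp1_LP. DJ_LP is the high library of the 6, since the others held 5.57 FPKM in glk1glk2_LP, 11.7 in glk1glk2_CK and 3.35 in dgp1_CK. In ZH11 it stood at 30.3 FPKM in ZH11_NP and 25.9 in ZH11_CK.

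OsPIN5a (Os01g0919800, chromosome 1, 40136226 to 40142760), a short PIN protein of the kind placed at the endoplasmic reticulum, varied most among the carriers. It stood at 0 FPKM in glk1glk2_LP and 8.83 in glk1glk2_CK, 16.6 in dgp1_LP and 132 in dgp1_CK, and 27.4 in DJ_LP and 48.1 in DJ_CK. The dgp1_CK library stands apart: OsPIN5a was 2.74-fold higher (1.64 to 4.82) in dgp1_CK than in DJ_CK and 7.94-fold lower (6.28 to 9.96) in dgp1_LP than in dgp1_CK. In glk1glk2_LP OsPIN5a was at least 1.42-fold lower than in DJ_LP, but its 0 there leaves room for the level of dgp1_LP. The glk1glk2_CK level rests on 1.23 estimated fragments. It was 5.45-fold lower (0.982 to 127) than in DJ_CK, within counting error. A gene on the opposite strand overlaps OsPIN5a, and whether the counting used strand is not given, so reads of the 2 genes may be mixed.

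Apart from OsPIN5a, the genes named PIN, which include the exporters of the plasma membrane, stayed under 3 FPKM in every library. OsPIN2, OsPIN8, OsPIN9, OsPIN1D, PIN1B (Os11g0137000) and PIN3B (Os05g0576900) were at 0 in all 8 libraries, and PIN1A (Os02g0743400) was above 0 in 1 library. The 2 tables number some PIN genes differently, so the locus identifies them. Of the AUX1/LAX influx carriers, OsLAX1 was the one above 0 in every library, with 20.7 FPKM in glk1glk2_LP and 25.9 in glk1glk2_CK, 46.8 in dgp1_LP and 33.3 in dgp1_CK, and 31.2 in DJ_LP and 38.2 in DJ_CK. Its ratios did not reach 2-fold in any of the 8 comparisons. In the ZH11 table the matched gene Os01g0856550 overlaps OsLAX1 on the opposite strand. OsLAX3 stayed at or below 3.88 FPKM, and OsLAX2 and OsLAX5 were at 0 in all 8.

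Genes around the families, for auxin synthesis, conjugate hydrolysis, perception and co-repression, were counted from a list of 75 genes matched by text. Its terms also took in auxin-repressed, auxin-induced, auxin-binding and dormancy-associated genes, jasmonate receptors and topless-related proteins. The counts below are for this mixed list and do not isolate synthesis or perception. On low phosphate 3 of the 31 tested were higher in DJ_LP than in DJ_CK and 11 lower, against 23.1% and 24.3% of all genes. Of these, 1 and 9 were beyond counting error, against 10.6% and 17.8% of all genes. In dgp1, 2 of 34 were higher in dgp1_LP than in dgp1_CK and 13 lower, all beyond counting error, against 19% and 18.9% of all genes. The median log2 ratio of the list was -0.71 in DJ and -0.61 in dgp1, beside 0.11 and 0.10 over all genes. In glk1glk2 10 of 32 were higher and 3 lower, against 23.3% and 23.1% of all genes, with none beyond counting error. Under normal supply 4 of 32 were higher in glk1glk2_CK than in DJ_CK and 14 lower, against 27.4% and 31.3%. Beyond counting error these were 2 and 4, against 6.34% and 7.04%. The median log2 ratio was -0.85, beside -0.24 over all genes, and own read totals add 0.41. In dgp1_CK 6 of 35 were higher than in DJ_CK and 4 lower, against 16.1% and 14.1%. Beyond counting error these were 2 and 2, against 4.44% and 3.96%. Between genotypes beyond counting error, 5 of 29 were higher in dgp1_LP than in DJ_LP and 3 lower, against 20.7% and 13.3% of all genes. In glk1glk2_LP 4 of 34 were higher than in DJ_LP and 6 lower, against 11% and 5.18%. In ZH11, of 26 tested, none was higher in ZH11_NP than in ZH11_CK and 1 was lower, against 1.61% and 3.19% of all genes.

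Among those genes, the amidohydrolase gene Os07g0249900 (ILL9), of a family that releases auxin from amino acid conjugates, stood at 5.71 FPKM in dgp1_LP, against 51.7 in dgp1_CK, and at 5.92 in DJ_LP and 59.3 in DJ_CK. It was 9.05-fold lower (5.19 to 15.2) on low phosphate in dgp1 and 10.0-fold lower (4.10 to 24.2) in DJ. ARP1, a dormancy-associated and auxin-repressed gene, stood at 42.7 FPKM in dgp1_LP, against 508 in dgp1_CK, and at 189.7 in DJ_LP and 752 in DJ_CK. That is 11.9-fold lower (10.1 to 14.0) in dgp1 and 3.96-fold lower (3.28 to 4.76) in DJ. Its relative Os09g0437500 went the other way in DJ, at 254 FPKM in DJ_LP and 57.4 in DJ_CK, 4.43-fold higher (2.77 to 7.56). The dormancy and auxin associated gene Os03g0342900 stood at 704 FPKM in dgp1_LP and 135 in dgp1_CK, 5.21-fold higher (4.18 to 6.58). Os07g0249800, an ILR1-like amidohydrolase, stood at 63.3 FPKM in glk1glk2_LP and 30.9 in glk1glk2_CK, 0 in dgp1_LP and 15.7 in dgp1_CK, and 0 in both DJ libraries.

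Receptor and synthesis genes named next were chosen after their values were seen. FIB, the tryptophan aminotransferase at the first step of auxin synthesis, stood at 8.33 FPKM in dgp1_LP, against 20.9 in dgp1_CK, and at 12.1 in DJ_LP and 25.4 in DJ_CK, 2.50-fold lower (1.56 to 3.85) in dgp1 and 2.10-fold lower (1.08 to 3.79) in DJ. The receptor OsAFB2 stood at 14.6 FPKM in DJ_LP and 36.7 in DJ_CK, 2.50-fold lower (1.62 to 3.76), and at 17.3 in dgp1_LP and 30.2 in dgp1_CK. The receptor TIR1 stood at 12.4 FPKM in DJ_LP and 18.0 in DJ_CK and at 10.4 in dgp1_LP and 16.2 in dgp1_CK, and passed neither call.

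Of the Aux/IAA repressors, the highest mean level over the 8 libraries was that of IAA17 (Os05g0230700, chromosome 5, 7950915 to 7954374), with 98.4 FPKM in glk1glk2_LP and 144 in glk1glk2_CK, 260.0 in dgp1_LP and 160.0 in dgp1_CK, and 125 in DJ_LP and 77.6 in DJ_CK, and 422 FPKM in ZH11_NP and 342 in ZH11_CK. It was 2.06-fold higher (1.45 to 2.98) in dgp1_CK than in DJ_CK and 2.08-fold higher (1.93 to 2.25) in dgp1_LP than in DJ_LP. With own read totals these log2 ratios, at 0.76 and 0.51, were under 2-fold. DJ_CK held the lowest IAA17 level of the 6 libraries. In glk1glk2_CK IAA17 was 1.86-fold higher (1.11 to 3.08) than in DJ_CK, and with own read totals this log2 ratio was 1.29, over 2-fold. IAA3 stood at 53.1 FPKM in glk1glk2_LP and 94.6 in glk1glk2_CK, 103 in dgp1_LP and 123 in dgp1_CK, and 127 in DJ_LP and 96.5 in DJ_CK, and was 2.39-fold lower (1.26 to 5.22) in glk1glk2_LP than in DJ_LP. IAA5 stood between 35.1 FPKM in glk1glk2_LP and 108 in dgp1_CK and was within 2-fold or within counting error in every comparison. A gene on the opposite strand overlaps IAA5.

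IAA2, IAA16 and IAA25 were lower on low phosphate in both DJ and dgp1. IAA2 (Os01g0190300, chromosome 1, 4816831 to 4818958) stood at 12.9 FPKM in glk1glk2_LP and 18.0 in glk1glk2_CK, 33.0 in dgp1_LP and 105 in dgp1_CK, and 24.2 in DJ_LP and 118 in DJ_CK. It was 3.17-fold lower (2.55 to 3.90) in dgp1_LP than in dgp1_CK and 4.85-fold lower (3.47 to 6.71) in DJ_LP than in DJ_CK. Under normal supply it was 6.53-fold lower (2.18 to 30.8) in glk1glk2 than in DJ. In ZH11, where phosphate was withheld for 24 h, IAA2 stood at 19.0 FPKM in ZH11_NP and 14.0 in ZH11_CK.

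IAA25 (Os08g0109400, chromosome 8, 468151 to 473510) stood at 15.7 FPKM in glk1glk2_LP and 18.2 in glk1glk2_CK, 10.9 in dgp1_LP and 37.2 in dgp1_CK, and 16.4 in DJ_LP and 55.1 in DJ_CK. It was 3.40-fold lower (2.56 to 4.43) in dgp1_LP than in dgp1_CK and 3.37-fold lower (2.35 to 4.74) in DJ_LP than in DJ_CK. The glk1glk2 levels lay near the low-phosphate levels of dgp1 and DJ, and IAA25 was 3.03-fold lower (1.25 to 9.12) in glk1glk2_CK than in DJ_CK. IAA16 (Os05g0186900, chromosome 5, 5329989 to 5331482) stood at 17.8 FPKM in glk1glk2_LP and 21.0 in glk1glk2_CK, 1.98 in dgp1_LP and 35.0 in dgp1_CK, and 3.99 in DJ_LP and 17.9 in DJ_CK. It was 17.7-fold lower (10.5 to 29.4) in dgp1_LP than in dgp1_CK and 4.50-fold lower (1.58 to 11.4) in DJ_LP than in DJ_CK, and in ZH11 it stood at 4.46 FPKM in ZH11_NP and 7.65 in ZH11_CK, within 2-fold.

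IAA23 (Os06g0597000, chromosome 6, 23501973 to 23503491), known in rice for maintaining the root quiescent centre, had its highest level of the 6 libraries in dgp1_LP. It stood at 8.66 FPKM in glk1glk2_LP and 10.5 in glk1glk2_CK, 60.9 in dgp1_LP and 6.65 in dgp1_CK, and 6.81 in DJ_LP and 7.47 in DJ_CK. It was 9.16-fold higher (3.83 to 29.4) in dgp1_LP than in dgp1_CK and 8.94-fold higher (6.09 to 13.7) in dgp1_LP than in DJ_LP. The IAA23 levels in glk1glk2_LP, glk1glk2_CK and DJ_CK rest on 1.25, 1.36 and 2.56 estimated fragments. IAA15 stood at 74.9 FPKM in dgp1_LP and 28.4 in dgp1_CK, 2.64-fold higher (1.67 to 4.43), with 38.7 in DJ_LP and 28.8 in DJ_CK. It was not called between dgp1_LP and DJ_LP. In glk1glk2_LP and glk1glk2_CK it stood at 28.8 and 14.0 FPKM, on 3.80 and 1.66 estimated fragments.

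IAA21 and IAA6 separated dgp1 from DJ on low phosphate in opposite directions. IAA21 stood at 75.3 FPKM in dgp1_LP and 18.5 in DJ_LP, 4.08-fold higher (3.20 to 5.27), and DJ_LP was 2.70-fold lower (1.48 to 4.67) than DJ_CK at 49.9 FPKM. IAA6 stood at 12.3 FPKM in dgp1_LP and 34.3 in DJ_LP, 2.80-fold lower (2.36 to 3.31). IAA13, which in rice acts in lateral root initiation and is overlapped by a matched gene on the opposite strand, was 2.45-fold higher (1.84 to 3.33) in dgp1_LP, at 36.7 FPKM, than in DJ_LP, at 14.97; with own read totals the log2 ratio was 0.72, under 2-fold. The Aux/IAA counts between these 2 libraries were 4 higher and 1 lower of 18 tested, against 20.9% and 13.4% of all genes. With own totals they were 2 higher and 3 lower, beside 1918 higher and 4066 lower over all genes.

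**Figure D4:**
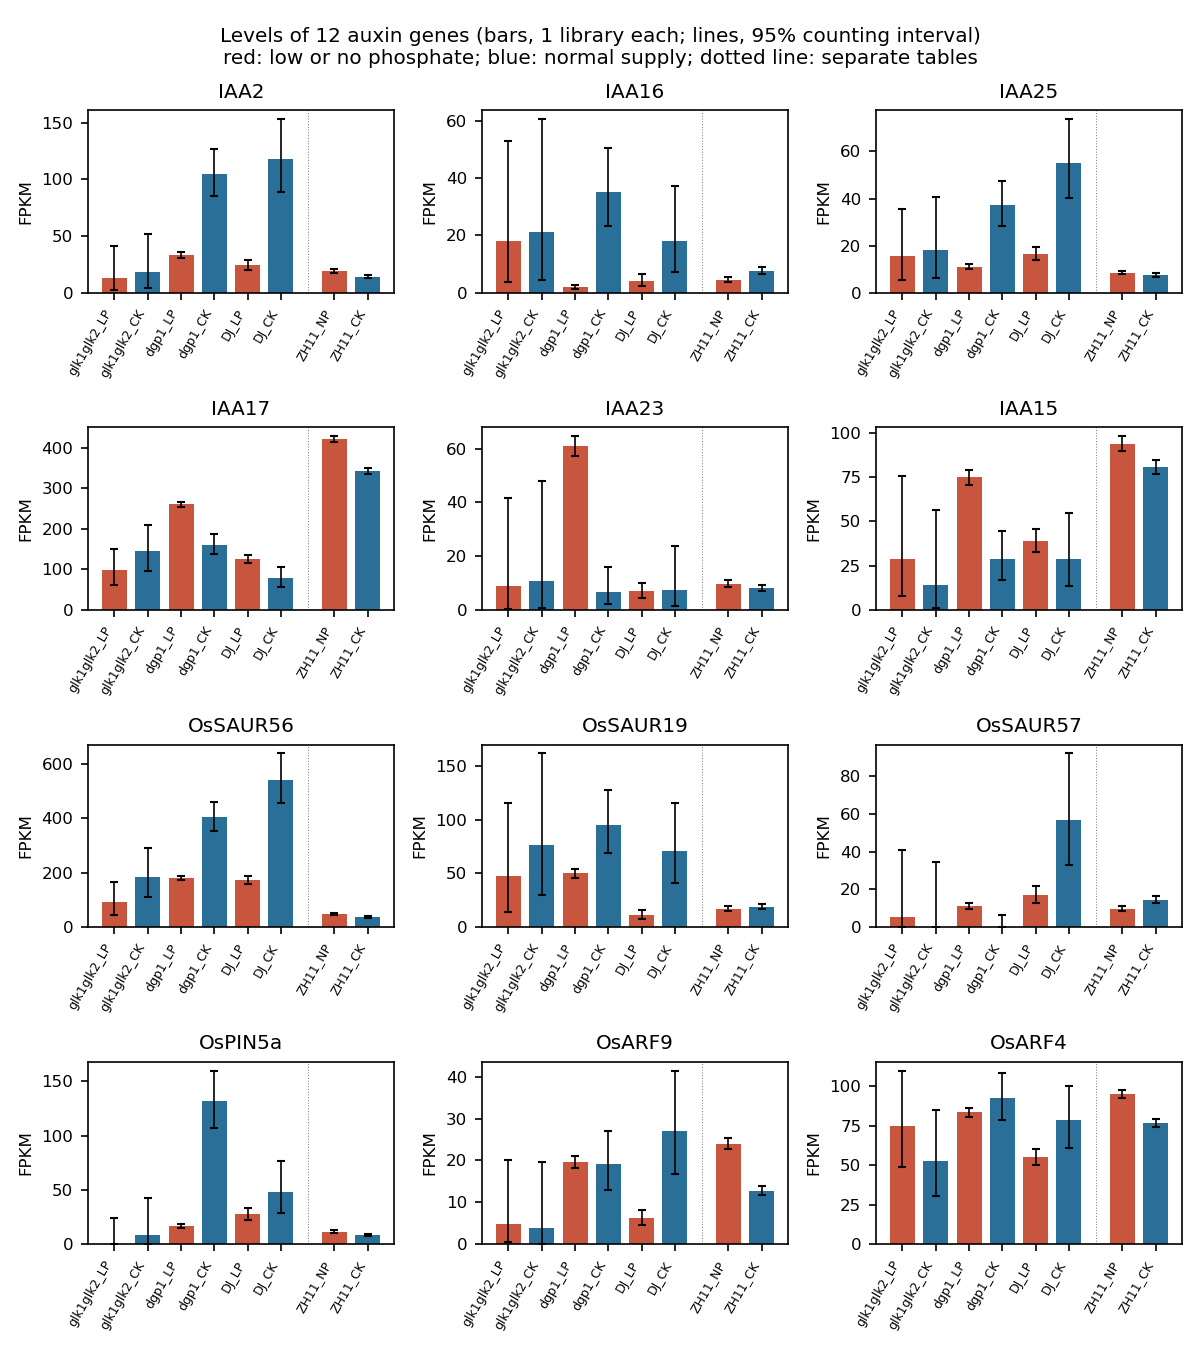
FPKM of 12 genes of the auxin families in each library (bars; red, low or no phosphate; blue, normal supply), with 95% counting intervals as lines and a dotted line between the separately scaled tables. IAA2, IAA25 and OsSAUR56 are lower in red than in blue for both dgp1 and DJ. Among the 6 libraries of glk1glk2, dgp1 and DJ, IAA23 is highest in dgp1_LP and OsPIN5a in dgp1_CK.

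The ARF family had the largest share of its genes above 0 in all 8 libraries, 17 of 30. Its median gene length was 2889 bases, against 1270.5 for Aux/IAA and 674 for SAUR genes. The FPKM level of 3 fragments falls with gene length, and the part of length in this share was not tested. OsARF4 (Os01g0927600, chromosome 1, 40695664 to 40700914), named AUXIN RESPONSE FACTOR 2 in the 6-library table, stood at 75.1 FPKM in glk1glk2_LP and 52.7 in glk1glk2_CK, 83.6 in dgp1_LP and 92.8 in dgp1_CK, and 55.1 in DJ_LP and 78.7 in DJ_CK, and at 95.4 FPKM in ZH11_NP and 76.9 in ZH11_CK. OsARF7b stood at 42.3 FPKM in glk1glk2_LP and 48.7 in glk1glk2_CK, 57.2 in dgp1_LP and 114 in dgp1_CK, and 51.2 in DJ_LP and 92.5 in DJ_CK, but the glk1glk2 values rest on about 3 estimated fragments each. OsARF1 stood between 21.0 FPKM in DJ_LP and 59.0 in dgp1_CK.

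On low phosphate in DJ, 2 of 17 tested ARF genes were lower beyond counting error and 1 higher, against 17.8% and 10.6% of all genes. OsARF9 stood at 4.90 FPKM in glk1glk2_LP and 3.78 in glk1glk2_CK, 19.5 in dgp1_LP and 19.1 in dgp1_CK, and 6.22 in DJ_LP and 27.1 in DJ_CK. It was 4.37-fold lower (2.51 to 7.34) in DJ_LP than in DJ_CK, 7.18-fold lower (1.23 to 221) in glk1glk2_CK than in DJ_CK and 3.14-fold higher (2.38 to 4.21) in dgp1_LP than in DJ_LP. A matched gene on the opposite strand overlaps it. OsARF8 stood at 3.33 FPKM in DJ_LP and 11.3 in DJ_CK, 3.38-fold lower (1.21 to 8.18), and was 3.71-fold higher (2.44 to 5.93) in dgp1_LP, at 12.4 FPKM, than in DJ_LP. The ARF gene OsARF3 at Os01g0753500 stood at 7.79 FPKM in DJ_LP and was at 0 in DJ_CK, at least 1.99-fold higher.

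In dgp1, 4 of 18 tested ARF genes were higher on low phosphate beyond counting error and 3 lower, against 19% and 18.9% of all genes. OsARF24 was 2.75-fold lower (2.15 to 3.48) in dgp1_LP, at 16.0 FPKM, than in dgp1_CK, at 44, and stood at 20.2 in DJ_LP and 27.2 in DJ_CK. Os08g0520550, a locus next to OsARF7b by number, stood at 5.60 FPKM in dgp1_LP and at 0 in dgp1_CK, at least 2.07-fold higher. With own read totals its level in dgp1_LP was under the minimum of 5 FPKM. Between genotypes on low phosphate, 6 of 17 ARF genes were higher in dgp1_LP than in DJ_LP and none lower, against 20.7% and 13.3% of all genes. With own totals 3 were higher and 1 lower, beside 1918 higher and 4066 lower over all genes. The 6 were OsARF6a, OsARF8, OsARF9, ARF8 (Os04g0671900), OsARF10 (Os06g0685700) and Os08g0520550.

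ARF16 (Os06g0196700), a factor linked in rice to auxin and phosphate starvation responses, was low throughout, with 8.01 FPKM in glk1glk2_LP and 1.89 in glk1glk2_CK, 1.60 in dgp1_LP and 1.52 in dgp1_CK, and 1.43 in DJ_LP and 1.18 in DJ_CK. It was 5.60-fold higher (1.28 to 17.7) in glk1glk2_LP than in DJ_LP, a ratio that rests on under 4 estimated fragments in glk1glk2_LP. In ZH11 it stood at 2.32 FPKM in ZH11_NP and 1.64 in ZH11_CK.

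The highest single level of any auxin-family gene in the 8 libraries was that of the SAUR gene OsSAUR56 (Os10g0510500, chromosome 10, 19631259 to 19632262) in DJ_CK. It stood at 90.3 FPKM in glk1glk2_LP and 185 in glk1glk2_CK, 179 in dgp1_LP and 403 in dgp1_CK, and 173 in DJ_LP and 543 in DJ_CK, and at 46.1 FPKM in ZH11_NP and 36.2 in ZH11_CK. OsSAUR56 was 2.26-fold lower (1.96 to 2.59) in dgp1_LP than in dgp1_CK and 3.14-fold lower (2.59 to 3.79) in DJ_LP than in DJ_CK. Under normal supply it was 2.93-fold lower (1.80 to 5.07) in glk1glk2 than in DJ. OsSAUR56 made up most of the difference between the SAUR sums of DJ_LP and DJ_CK.

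OsSAUR19 stood at 47.6 FPKM in glk1glk2_LP and 76.4 in glk1glk2_CK, 49.99 in dgp1_LP and 94.96 in dgp1_CK, and 10.8 in DJ_LP and 71.0 in DJ_CK. DJ_LP is the low library: OsSAUR19 was 6.59-fold lower (3.32 to 12.7) there than in DJ_CK, while on low phosphate dgp1 was 4.64-fold higher (3.16 to 7.07) and glk1glk2 4.41-fold higher (1.23 to 12.1) than DJ. OsSAUR11 stood at 144 FPKM in glk1glk2_LP and 21.9 in glk1glk2_CK, 55.6 in dgp1_LP and 17.7 in dgp1_CK, and 18.5 in DJ_LP and 6.41 in DJ_CK. It was 6.57-fold higher (1.57 to 55.4) in glk1glk2_LP than in glk1glk2_CK, 3.14-fold higher (1.66 to 6.80) in dgp1_LP than in dgp1_CK, and 7.78-fold higher (4.10 to 13.9) in glk1glk2_LP than in DJ_LP. In DJ its ratio was 2.88-fold higher (0.673 to 35.1), within counting error. Of the members above 0 in all 6 libraries OsSAUR11 had the widest range, 22.4-fold, from a DJ_CK level that rests on 1.62 estimated fragments.

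OsSAUR57 (Os12g0609600, chromosome 12, 25744009 to 25745100) stood at 5.22 FPKM in glk1glk2_LP and 0 in glk1glk2_CK, 11.1 in dgp1_LP and 0 in dgp1_CK, and 16.7 in DJ_LP and 56.9 in DJ_CK. It was 3.40-fold lower (1.82 to 6.02) in DJ_LP than in DJ_CK but at least 2.19-fold higher in dgp1_LP than in dgp1_CK, where it was at 0. Under normal supply it was at least 11.2-fold lower in dgp1 and at least 2.04-fold lower in glk1glk2 than in DJ. DJ_CK is thus the high library, with about 16 estimated fragments.

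SAUR39, which in rice is known to lower auxin synthesis and transport when overexpressed, stood at 18.0 FPKM in glk1glk2_LP and 13.2 in glk1glk2_CK, 1.81 in dgp1_LP and 14.96 in dgp1_CK, and 22.1 in DJ_LP and 9.55 in DJ_CK. It was 8.24-fold lower (2.56 to 22.4) in dgp1_LP than in dgp1_CK and 12.2-fold lower (6.82 to 22.7) than in DJ_LP. Its neighbour OsSAUR53 stood at 28.2 FPKM in dgp1_LP and 0.868 in DJ_LP, 32.4-fold higher (7.72 to 412), with under 2 fragments in DJ_LP. SAUR39, OsSAUR53 and 16 other SAUR genes lie together on chromosome 9 between 21565770 and 21609952, and 11 of these 18 were above 0 in some library. Such neighbours are often near-identical copies whose reads a counter can split, so their single values are uncertain. OsSAUR29 stood at 41.9 FPKM in glk1glk2_LP and 4.20 in DJ_LP, 9.96-fold higher (2.38 to 33.1), and a matched gene on the opposite strand overlaps it.

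Across the SAUR family, 0 of 9 tested genes were higher in DJ_LP than in DJ_CK beyond counting error and 3 lower, against 10.6% and 17.8% of all genes. In dgp1 5 of 12 were higher and 3 lower, against 19% and 18.9%. Between genotypes on low phosphate 7 of 12 were higher in dgp1_LP than in DJ_LP and 2 lower, against 20.7% and 13.3% of all genes. With own totals 6 were higher and 5 lower, beside 1918 higher and 4066 lower over all genes. A total of 17 of the 59 SAUR genes were at 0 in all 8 libraries.

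Of the GH3 genes, the highest mean level over the 8 libraries was that of JAR1 (Os05g0586200), which conjugates jasmonate rather than auxin to isoleucine. JAR1 stood at 37.2 FPKM in glk1glk2_LP and 36.0 in glk1glk2_CK, 64.0 in dgp1_LP and 32.3 in dgp1_CK, and 46.5 in DJ_LP and 40.9 in DJ_CK, and at 50.8 FPKM in ZH11_NP and 48.8 in ZH11_CK, within 2-fold in all 8 comparisons at the authors' scaling. The GH3 locus Os01g0221000 stood at 18.5 FPKM in dgp1_LP and 9.66 in dgp1_CK, 21.3 in DJ_LP and 15.5 in DJ_CK, and 61.2 in ZH11_NP and 52.7 in ZH11_CK, and was at 0 in both glk1glk2 libraries. Its level at 3 estimated fragments in either glk1glk2 library lies above all its dgp1 and DJ levels, so these 0 values set no bound. The DJ_CK level rests on 1.94 estimated fragments. Os07g0671450, listed only with ZH11, stood at 7.42 FPKM in ZH11_NP and 11.1 in ZH11_CK. The genes GH3-2, OsGH3-6 and GH3-8, of the kind that conjugates auxin, each stayed under 4 FPKM in every library. At no more than 4 genes tested per comparison, no GH3 gene was beyond counting error in any of the 8.

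The text matches of another kind held a group of neighbouring receptor kinases. SHR5, Os08g0203201, Os08g0203300 and Os08g0203600 lie together on chromosome 8 between 5982519 and 6039069, with another member among them, and in the ZH11 table genes on the opposite strand overlap SHR5, Os08g0203300 and Os08g0203600. SHR5 stood at 0 FPKM in glk1glk2_LP and 0 in glk1glk2_CK, 17.7 in dgp1_LP and 0.787 in dgp1_CK, and 34.6 in DJ_LP and 6.08 in DJ_CK. At 3 estimated fragments its level would be 8.12 FPKM in glk1glk2_LP and 9.06 in glk1glk2_CK, so both 0 values leave room for the levels of DJ_CK. SHR5 was 22.4-fold higher (5.08 to 343) in dgp1_LP than in dgp1_CK and 5.69-fold higher (2.47 to 16.9) in DJ_LP than in DJ_CK. Os08g0203600 stood at 0 FPKM in glk1glk2_LP and 0 in glk1glk2_CK, 26.0 in dgp1_LP and 8.67 in dgp1_CK, and 38.4 in DJ_LP and 3.93 in DJ_CK, 3.004-fold higher (1.93 to 4.97) on low phosphate in dgp1 and 9.79-fold higher (3.90 to 34.4) in DJ. Of 58 members tested in both the DJ and the dgp1 response, 4 were higher in both beyond counting error and 5 lower in both, against 4.54% and 10.1% of all genes tested in both. The 4 were SHR5, Os08g0203300, Os08g0203600 and Os05g0253200, a text match on chromosome 5, and the 5 were IAA2, IAA16, IAA25, OsSAUR56 and the text match Os05g0449600. Os05g0449600 stood at 5.64 FPKM in dgp1_LP, against 14.8 in dgp1_CK, and at 4.34 in DJ_LP and 16.9 in DJ_CK. Os05g0256100 stood at 12.9 FPKM in DJ_LP and 33.6 in DJ_CK, 2.61-fold lower (1.68 to 3.95), and Os04g0616700 was 2.17-fold higher (1.81 to 2.62) in dgp1_LP, at 17.8 FPKM, than in DJ_LP, at 8.21. With own read totals both log2 ratios were under 2-fold, at -0.95 and 0.53. The ADP-ribosylation factor gene at Os08g0248900 stood between 35.6 FPKM in dgp1_CK and 100.3 in glk1glk2_CK.

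In ZH11 after 24 h without phosphate, 4 of 72 members were at least 2-fold higher in ZH11_NP than in ZH11_CK and 4 lower, against 1.61% and 3.19% of all genes, and all 8 were beyond counting error, against 1.59% and 3.19%. The median log2 ratio over members was 0.16, beside -0.02 over all genes. OsPILS6a stood at 51.6 FPKM in ZH11_NP and 23.6 in ZH11_CK, 2.19-fold higher (2.02 to 2.37). OsARF5 stood at 23.6 FPKM in ZH11_NP and 8.73 in ZH11_CK, 2.70-fold higher (2.43 to 3.004). IAA31 stood at 13.9 FPKM in ZH11_NP and 5.54 in ZH11_CK, 2.51-fold higher (1.99 to 3.18). The ARF locus Os08g0520550 stood at 15.9 FPKM in ZH11_NP and 5.43 in ZH11_CK, 2.93-fold higher (2.47 to 3.49).

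The 3 auxin genes that were lower in ZH11_NP were all SAUR genes. OsSAUR11 stood at 12.9 FPKM in ZH11_NP and 26.9 in ZH11_CK, 2.09-fold lower (1.77 to 2.48), a log2 ratio of -0.94 with own read totals. OsSAUR29 stood at 1.89 FPKM in ZH11_NP and 5.34 in ZH11_CK, 2.83-fold lower (1.82 to 4.50), and OsSAUR26 at 0.201 FPKM in ZH11_NP and 6.09 in ZH11_CK, 30.2-fold lower (7.99 to 256). IAA30 and its neighbour IAA31 on chromosome 12 were expressed in ZH11 and listed at low levels or at 0 in the 6-library table. In the 6 libraries IAA31 reached at most 0.889 FPKM, and where it was at 0 its level may have been up to the floor. IAA30 stood at 39.3 FPKM in ZH11_NP and 29.0 in ZH11_CK, against 3.64 FPKM in dgp1_LP, 0.377 in DJ_LP and 0 in the other 4 libraries. The floor for IAA30 was 19.7 FPKM in glk1glk2_CK, 3.59 in dgp1_CK and 7.46 in DJ_CK, and these levels come from tables scaled separately.

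The steadiest members over the 6 libraries of glk1glk2, dgp1 and DJ came from 4 families. Of the 48 members above 0 in all 6, 6 had a highest level under 2 times the lowest: IAA19 (1.62-fold), OsPILS7a (1.65-fold), OsARF4 (1.76-fold), OsPILS2 (1.86-fold), OsARF7 (1.93-fold) and JAR1 (1.98-fold). OsSAUR11, IAA16, OsGH3-7, SAUR39, Os05g0449600 and IAA13 were among those that ranged 10-fold or more. Some of these ranges rest on very few fragments. The highest OsGH3-7 level, 3.15 FPKM in glk1glk2_CK, rests on 0.74 estimated fragments. The lowest levels of IAA13 (3.61 FPKM) and Os05g0449600 (1.45 FPKM), both in glk1glk2_LP, rest on 0.46 and 0.52. Of the 82 members with at least 5 FPKM in some of the 6 libraries, 13 had their highest level in glk1glk2_LP, 7 in glk1glk2_CK, 25 in dgp1_LP, 12 in dgp1_CK, 14 in DJ_LP and 11 in DJ_CK. The same split was not counted over all genes, so it is not read as a trait of the members. It also depends on the unequal depth and on scaling, as own read totals shift dgp1_LP over DJ_LP by -0.55.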

How the data were processed

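Total RNA of rice leaves was sequenced after directional library preparation, per the labels' protocols. The authors deposited 1 table of 6 libraries (40718 genes) and 1 of 2 libraries (38977 genes), with no unit in the header. The deposited values were taken as FPKM, since multiplying them by gene length gave, within each library, whole multiples of 1 number (tolerance 0.01, 100% of values). Aligner, counting tool and genome build are not given in the sources used here, so coordinates are those of the deposited tables.

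Reads were recovered from that step and divided by the most frequent read number (searched from 5 to 600) to estimate fragments. The rule for finding that number was adjusted on these libraries, before ratios were formed, so that it found the groupings visible in DJ_LP and, as a further peak, in DJ_CK; the results of its earlier versions are among the alternatives. Ratios used a pseudocount of 1 FPKM, a minimum of 5 FPKM in 1 of 2 libraries (1 FPKM for medians) and a 2-fold threshold, in Python 3.11.15 with numpy 2.4.6, pandas 2.3.3 and scipy 1.17.1. The recovery of reads and the calls were tested on simulated data. There the reads per fragment were set to the known number, so the search for that number was not tested. No p-value is given, with 1 library per group. Marker lists covered leaf mesophyll, root, stem base and dividing cells, and 75 further genes were matched by auxin-related text.

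The members and lists were chosen with earlier results of these data known. Named members were the 3 highest per family by mean level, the highest and lowest ratio per family and comparison beyond counting error, those called in opposite directions in 2 genotypes, and those called alike in DJ and dgp1. All members named outside this rule, such as IAA13, IAA15, IAA19, IAA21, IAA30, OsARF5, OsPILS2 and the PIN genes, were chosen after their values were seen. Protein and promoter sequences were not analysed here. Alternatives were a pseudocount of 0.1, no minimum level, scaling to own read totals, a further read-number peak as 1 fragment and, added after the data were seen, leaving out text matches of another kind and the earlier versions of the peak search.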

Additional observations from a re-analysis of the deposited data

Results flagged for a closer look

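OsSAUR57 was called in opposite directions by low phosphate in 2 genotypes, each beyond counting error. Its log2 ratio of FPKM + 1 was 3.60 for dgp1_LP over dgp1_CK and -1.71 for DJ_LP over DJ_CK, and the DJ response minus the dgp1 response was -5.30. The level was 11.1 FPKM in dgp1_LP and 0 in dgp1_CK, and 16.7 in DJ_LP and 56.9 in DJ_CK. The difference between the responses was not tested, since each group has 1 library.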

How the results depend on the processing

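With 1 library per group, no spread between plants could be measured and no library could be left out. No paired analysis was possible because each group has 1 library and the labels carry no replicate numbers. With a pseudocount of 0.1 all 24 counts and medians stayed close, counts within 1.5 times. With no minimum level, members higher were 32 in DJ_LP over DJ_CK, 39 in dgp1_LP over dgp1_CK, 20 in glk1glk2_LP over glk1glk2_CK, 16 in dgp1_CK over DJ_CK and 28 in dgp1_LP over DJ_LP. Members lower were then 20 in DJ_LP over DJ_CK, 16 in dgp1_CK over DJ_CK, 35 in glk1glk2_CK over DJ_CK, 18 in dgp1_LP over DJ_LP and 43 in glk1glk2_LP over DJ_LP. With own read totals, 14 members were higher in glk1glk2_CK over DJ_CK, and 11 were higher and 19 lower in dgp1_LP over DJ_LP. Over all genes the same scaling gave 5645 higher in the former, and 1918 higher and 4066 lower in the latter. The median member log2 ratio was then -0.38 in dgp1_CK over DJ_CK, -0.17 in dgp1_LP over DJ_LP, where it had been 0.31, and 0.23 in ZH11_NP over ZH11_CK. It was 0.46 in DJ_LP over DJ_CK, where it had been 0.12, and -0.16 in glk1glk2_CK over DJ_CK, where it had been -0.57. The medians over all genes at own totals were -0.18, -0.43, 0.04, 0.51 and 0.14 in the same 5 comparisons. With the further read-number peak as 1 fragment, members beyond counting error were 7 in glk1glk2_LP over glk1glk2_CK, 11 in glk1glk2_CK over DJ_CK and 22 in glk1glk2_LP over DJ_LP. The counts with no minimum level or with the further peak have no share over all genes beside them. They are not read as traits of the members. Without the text matches of another kind, chosen after the data were seen, 10 were higher and 11 beyond counting error in DJ_LP over DJ_CK, 5 lower in dgp1_LP over DJ_LP, and 15 lower and 7 beyond counting error in glk1glk2_LP over DJ_LP. The earlier versions of the peak search, also run after the data were seen, kept each count beyond counting error within 1.5 times: with each DJ_LP read as 1 fragment, 20 in DJ_LP over DJ_CK and 15 in glk1glk2_LP over DJ_LP, and with DJ_CK at its main peak, 9 in glk1glk2_CK over DJ_CK. No called ratio of a rule-named gene reversed with a pseudocount of 0.1 or own read totals. Among the ratios of rule-named genes compared, called or not, 12 were no longer called with own read totals, 11 became called and 262 kept their status. The 262 include ratios called at neither scaling. The cause of these shifts was not tested. Depth limits the glk1glk2 libraries most.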
